A study of Mus musculus with 14 samples.

Results

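Solute carriers are membrane proteins that move amino acids, sugars, ions, metals, vitamins and other small molecules into, out of and within cells. Their symbols give a family number and a member number, and members of a family usually share a kind of substrate. Muscle stem cells (MuSCs) leave quiescence after injury, divide and form new fibers, and carriers are among the proteins through which growing cells take up nutrients. MyoD and MyoG are transcription factors of the muscle lineage that bind DNA at E-boxes, short motifs of the form CANNTG. The genes described here are those to which the authors of the peak lists assigned a MyoD or MyoG peak and whose symbol begins with Slc and a family number. The mitochondrial carriers (Slc25a genes) and the sodium-calcium exchangers Slc8a1 and Slc8a3 were left out. Of the 4385 genes given a peak, 59 met this rule, from 25 families. They held 124 of the 10303 listed peaks.

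The libraries came from wild-type mice in which Pax7-CreERT2, a recombinase expressed in MuSCs and switched on by tamoxifen (75 mg/kg, 5 daily doses), turned on a mitochondrial Dendra2 protein, so that sorted cells are MuSCs or their progeny. Quiescent cells (QSCs, CD34+) came from saline-injected tibialis anterior muscle, and activated cells (ASCs, CD34-) came from the opposite muscle 2 days after injection of 50 µL of 1.2% BaCl2. Each of the 4 groups (ASC MyoD, QSC MyoD, ASC MyoG and QSC MyoG) held 3 ChIP-seq libraries. The study calls the 3 libraries biological replicates, and the labels do not say how many mice each held or whether the ASC and QSC libraries of a number came from the same mice. The 2 input libraries were not analysed here. Cell identity could not be checked against marker genes, since peak lists carry no expression values. A peak is a stretch of DNA where a library held more reads than its background, and its score is 10 times the negative log10 of its p-value, with a lowest listed score of 50.0. Read depth was unknown, and libraries held from 120 to 2652 peaks, so that a missing peak does not show missing binding.

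Promoter windows of 2 genes, Slc29a1 and Slc44a2, are shown first. Each was overlapped by a MyoD region found in at least 2 ASC libraries and in no QSC library. Slc29a1 carries nucleosides across the plasma membrane by facilitated diffusion, and Slc44a2 belongs to the choline transporter-like family. Each sequence is the 250 bases before the start of a RefSeq transcript (GRCm38.p6, the mm10 build), written 5' to 3' on the strand of the gene, and capitals mark every CANNTG. The Slc29a1 window lies at chr17:45599619-45599868 on the minus strand, and the Slc44a2 window at chr9:21337578-21337827 on the plus strand. The Slc44a2 window lies inside its gene body (chr9:21320719-21355028), so its transcript start is not the outermost start of the gene.
Slc29a1: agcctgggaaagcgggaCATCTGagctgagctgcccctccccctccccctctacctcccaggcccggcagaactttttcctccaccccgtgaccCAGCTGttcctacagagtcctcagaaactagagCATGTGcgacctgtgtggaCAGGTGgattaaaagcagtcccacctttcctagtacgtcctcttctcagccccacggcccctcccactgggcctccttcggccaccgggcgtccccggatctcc
Slc44a2: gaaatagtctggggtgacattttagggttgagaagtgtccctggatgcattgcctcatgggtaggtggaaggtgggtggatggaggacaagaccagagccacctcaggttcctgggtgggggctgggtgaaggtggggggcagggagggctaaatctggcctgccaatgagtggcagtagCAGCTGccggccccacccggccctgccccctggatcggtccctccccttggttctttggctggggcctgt

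Both windows held CAGCTG, the palindromic form of the E-box. The Slc29a1 window held 4 CANNTG motifs, among them 1 CAGCTG and 1 CAGGTG, and the Slc44a2 window held 1, the CAGCTG. Over all 32851 promoter windows of this length, 13% held CAGCTG, 17.2% held CACCTG or its reverse complement CAGGTG, and 66.2% held any CANNTG, a motif that includes the other forms and reads as CANNTG on both strands. Among the 166 windows that an ASC-specific MyoD region overlapped, these shares were 38%, 31.3% and 81.9%. Over the 324 windows of annotated solute carriers the share with CAGCTG was 13%. These matches are descriptions of the letters in a window, and the place of MyoD within a peak is not known.

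Solute carrier peaks were found mainly with MyoD in ASCs. MyoD peaks lay at 31, 27 and 20 solute carrier genes in ASC replicates 1, 2 and 3 (mean 26 ± 5.57, SD, n = 3 libraries), against 0, 1 and 0 genes in QSCs. MyoG peaks lay at 5, 7 and 8 genes in ASCs (mean 6.67 ± 1.53) and at 1, 2 and 2 genes in QSCs (mean 1.67 ± 0.577). The ranges of ASCs and QSCs did not overlap with either antibody. The lists themselves differ in length in the same direction, with 2262 to 2652 peaks in ASC MyoD and 139 to 174 in QSC MyoD libraries. With MyoG they held 605 to 916 peaks in ASCs and 120 to 167 in QSCs. Counts over all genes were apart too, at 1808 to 2066 against 104 to 145 with MyoD. With MyoG they were 423 to 662 against 117 to 159. The part of list length in the gene counts was not tested.

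Measured against the length of each list, solute carriers held 1.55%, 1.37% and 1.09% of the ASC MyoD peaks (mean 1.34% ± 0.231) and 0%, 0.719% and 0% of the QSC MyoD peaks (mean 0.240% ± 0.415), the latter being 1 peak of 484. The ranges were apart for MyoD. With MyoG the share was 0.546%, 1.16% and 1.41% in ASCs (mean 1.04% ± 0.444) and 0.833%, 1.23% and 1.20% in QSCs (mean 1.09% ± 0.222), and the ranges overlapped. Of the 326 solute carriers that RefSeq annotates as protein coding under the same rule, 18.1% had a peak in any library, against 14.4% of the 21883 protein-coding genes. The annotated solute carriers are longer than other genes, with a median length of 29.5 kb against 17.2 kb, and the 59 with a peak had a median of 61.1 kb. The part of gene length in these shares was not tested.

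**Figure D1:**
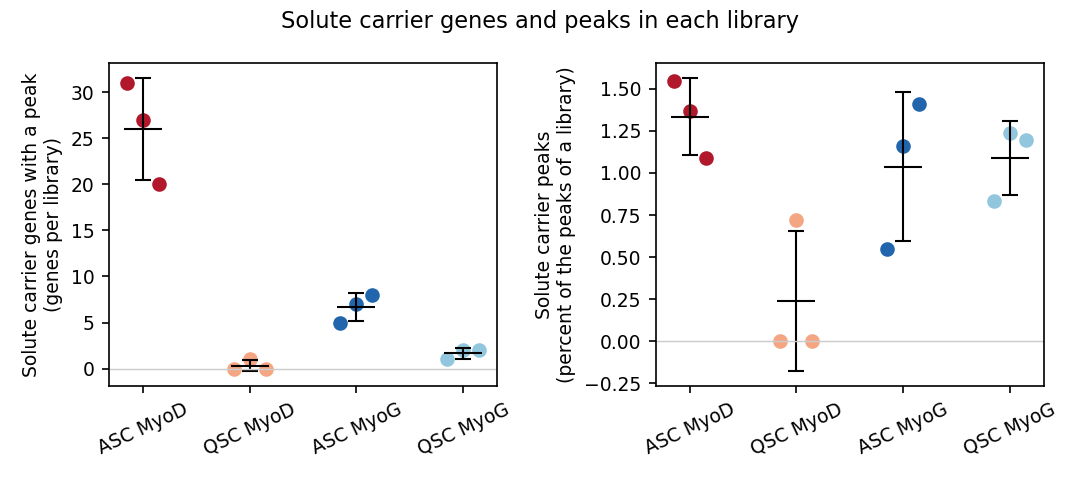
Solute carrier genes with a peak (left, genes per library) and solute carrier peaks as a percent of all peaks of a library (right) in ASCs and QSCs for MyoD and MyoG. Points are the 3 libraries of a group, in order of replicate, and bars show the mean and SD. The ASC MyoD libraries hold 20 to 31 such genes and the QSC MyoD libraries 0 or 1, while the MyoG percentages of ASCs and QSCs overlap.

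A gene was called ASC-specific when at least 2 of the 3 ASC libraries and no QSC library of the same antibody held a peak for it. For MyoD, 23 of the 43 solute carriers with a MyoD peak were ASC-specific. Over all 3223 genes with a MyoD peak the share called was 51.9%, and among the solute carriers it was 53.5%, so the share was near the background. In all 3 ASC libraries and no QSC library, 13 solute carriers had a peak (30.2%, against 31.6% of all genes). For MyoG, 2 of 23 were ASC-specific (8.70%, against 11.7% of 1542 genes) and 0 had a peak in all 3 ASC libraries (against 4.54%). No solute carrier was QSC-specific with either antibody, against 0.683% of genes for MyoD and 0.259% for MyoG. The presence of a peak was tested per gene by Fisher's exact test (two-sided) over all genes with a peak of that antibody. A gene with 3 libraries against 0 has an exact p of 0.1, the smallest that 3 against 3 allows, and a Benjamini-Hochberg adjusted exact p of 0.314 for MyoD. No gene of any kind passed 0.05 by this test before or after adjustment, so the calls are descriptions.

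The 42 solute carriers with an ASC MyoD peak fell into 13 genes found in 3 libraries (31%), 10 found in 2 (23.8%) and 19 found in 1 (45.2%). Over all 2964 genes with an ASC MyoD peak these shares were 35.5%, 22.7% and 41.8%. With MyoG in ASCs, 0 solute carriers were found in 3 libraries, 2 in 2 (11.1%) and 16 in 1 (88.9%), where all 1230 genes gave 6.59%, 10.2% and 83.2%. In QSCs each of the solute carriers with a peak, 1 for MyoD and 5 for MyoG, was found in a single library. So were most genes of any kind in QSCs, 91.0% of 345 for MyoD and 96.4% of 413 for MyoG.

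**Figure D2:**
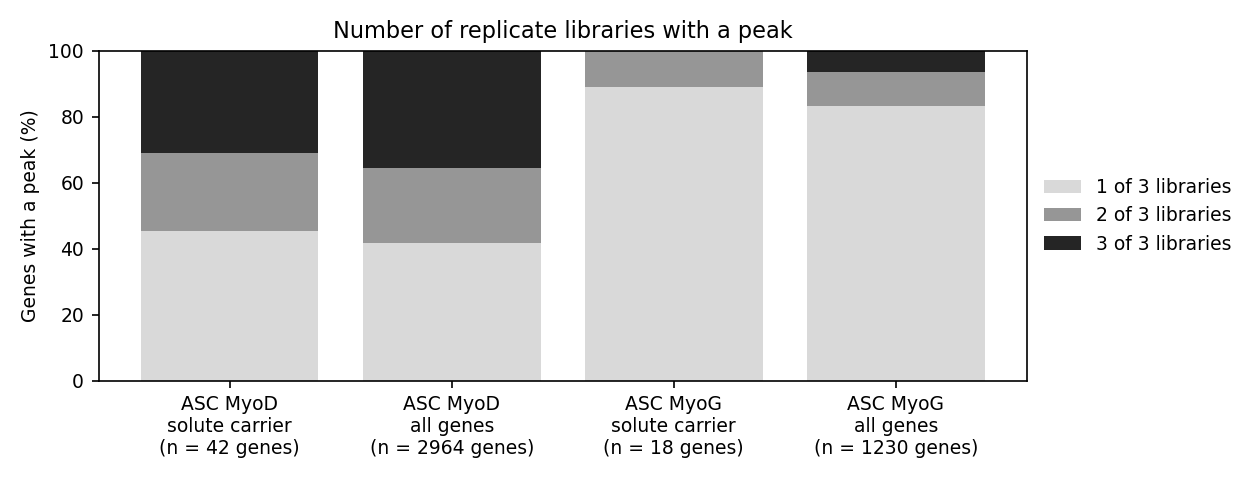
Percent of genes with an ASC peak that were found in 1, 2 or 3 of the 3 libraries, for solute carriers and for all genes, with MyoD and with MyoG. For MyoD, 31% of solute carriers and 35.5% of all genes were found in 3 libraries, and for MyoG no solute carrier was.

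**Figure D3:**
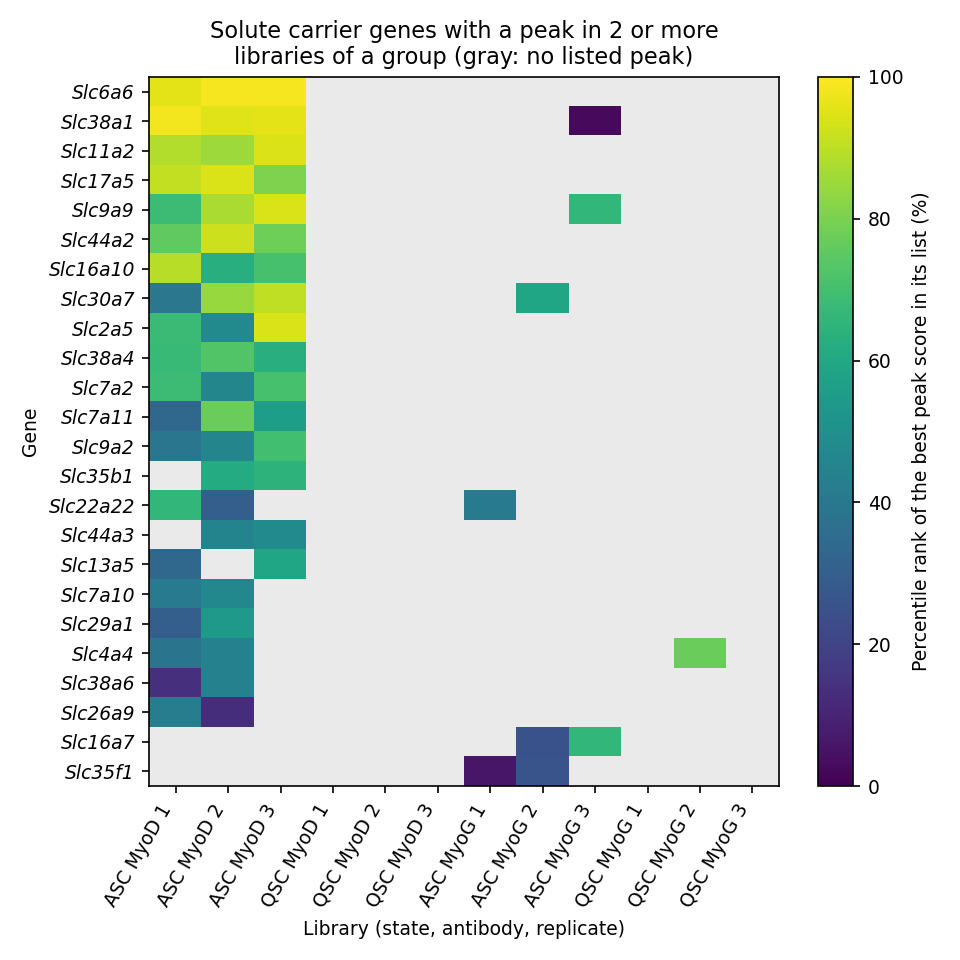
Solute carrier genes named in the text that had a peak in at least 2 libraries of a group (rows) in each of the 12 libraries (columns). Color gives the percentile rank of the gene's best peak score within its own list, from 0 to 100%, and gray marks no listed peak. The ASC-specific MyoD genes, in the upper rows, have peaks in 2 or 3 of the ASC MyoD columns and none in the QSC MyoD columns, and Slc16a7 and Slc35f1 at the bottom have MyoG peaks only.

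Of the 49 annotated carriers of amino acids and peptides (families 1, 3, 7, 15, 32, 36, 38 and 43), 9 had a peak in any library. This was 18.4%, against 18.1% of annotated solute carriers and 14.4% of coding genes. ASC-specific for MyoD were 6 of the 49 (12.2%). Over all annotated protein-coding genes this share was 6.15%, and over the 326 annotated solute carriers it was 7.06%. The 6 genes were Slc38a1, Slc38a4, Slc38a6, Slc7a2, Slc7a10 and Slc7a11. Slc38a1, a sodium-coupled carrier of glutamine and other neutral amino acids, had the highest score of any single solute carrier peak. Its region in intron 4 of 15 (ENSMUSG00000023169, chr15:96603938-96604987) scored 306, 199 and 203 in ASC MyoD replicates 1, 2 and 3 (mean 236 ± 60.5). These values placed it, on average, at the 96.4th percentile of its lists.

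Slc38a4, which carries neutral and cationic amino acids, had a distal region 33.4 kb from its gene body (ENSMUSG00000022464, chr15:97089356-97090216). Its scores of 93.7, 96.1 and 79.9 (mean 89.9 ± 8.70) varied less than those of Slc38a1. Slc38a6, of the same family, had a region in 2 libraries with scores of 54.8 and 68.0 (ENSMUSG00000044712, chr12:73355052-73355883). The authors annotated it as distal intergenic, but it touches the gene body in RefSeq.

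In family 7, Slc7a2, a carrier of arginine and other cationic amino acids, had a promoter region (ENSMUSG00000031596, chr8:40896191-40897424). It was annotated 1 to 2 kb from a transcription start, but in RefSeq it lies inside the gene body (chr8:40862341-40922070). Its scores were 95.1, 69.2 and 90.3 (mean 84.9 ± 13.8). Slc7a11, the cystine-glutamate exchanger that supplies cystine for glutathione, had a region at chr3:50105190-50106157 (ENSMUSG00000027737) with scores of 59.4, 105 and 73.0 (mean 79.0 ± 23.2). This region lies 259 kb from the gene body, farther than any other ASC-specific solute carrier region, which leaves its assignment to this gene uncertain. Slc7a10, a carrier of small neutral amino acids, had a distal region in replicates 1 and 2 with scores of 69.4 and 69.9 (ENSMUSG00000030495, chr7:35162230-35163115). Slc43a2 had a peak in 1 ASC MyoD library, with a score of 61.8, annotated as promoter but inside the RefSeq gene body.

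Family 16 is known for monocarboxylates, but its member Slc16a10 carries aromatic amino acids. Slc16a10 had a region in intron 3 of 5 (ENSMUSG00000019838, chr10:40068501-40069938) with scores of 158, 83.5 and 90.8 (mean 111 ± 41.2). Slc13a5, the citrate carrier, had a distal region in replicates 1 and 3 with scores of 64.4 and 75.1 (ENSMUSG00000020805, chr11:72233775-72234555). Together with Slc16a10 it made 2 ASC-specific MyoD genes among 34 annotated carriers of monocarboxylates, fatty acids and other organic anions (5.88%, against 6.15% of coding genes).

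Slc6a6, the taurine transporter, had more MyoD regions than any other solute carrier, 5 in all, of which 3 were in at least 2 ASC libraries. All were distal intergenic, between 21.0 and 65.6 kb from the gene body (ENSMUSG00000030096, chromosome 6). The strongest (chr6:91619033-91621191), 2159 bp long after merging, scored 231, 295 and 292 in replicates 1, 2 and 3 (mean 273 ± 36.1) and stood at a mean percentile of 97.7. It had the highest mean score of the solute carrier regions. A second region in all 3 libraries (chr6:91659720-91660648) scored 99.9, 124 and 98.7 (mean 107 ± 14.1). The region at chr6:91617477-91618424 was called in replicates 1 and 3, with scores of 96.3 and 59.7, and the remaining regions were called in replicate 1 only, with scores of 86.2 and 58.7. None of the 5 overlapped a protein-coding gene of RefSeq.

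Slc17a5, the lysosomal carrier of sialic acid, had a pair of MyoD regions at its 3' end (ENSMUSG00000049624, chromosome 9). The region at chr9:78538106-78539166 scored 168, 190 and 69.2 (mean 142 ± 64.4) and was annotated as 3' untranslated region in replicates 1 and 2 and as exon 11 of 11 in replicate 3. The region at chr9:78536893-78537769 scored 66.8, 69.0 and 108 (mean 81.3 ± 23.1). Replicate 3 was thus the lowest of the libraries at the first region and the highest at the second. Such 3' regions were 2 of the 29 ASC-specific solute carrier regions (6.90%) and 2.28% of all 1976. The 2 were this Slc17a5 pair, which lies less than 500 bp apart, so that the share rests on a single site.

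Of the metal carriers, 2 of 32 annotated genes were ASC-specific for MyoD (6.25%, against 6.15% of coding genes). Slc11a2 (DMT1), which imports ferrous iron, had a region in intron 1 of 16 (ENSMUSG00000023030, chr15:100413757-100414664) with scores of 154, 130 and 182 (mean 155 ± 26), at a mean percentile of 89.5. Slc30a7, which moves zinc into the Golgi, had a region in intron 8 of 10 (ENSMUSG00000054414, chr3:115968740-115969758) with scores of 68.3, 126 and 151 (mean 115 ± 42.5). Slc30a10, a manganese exporter, and Slc39a11, of a family of zinc importers, had ASC MyoD peaks in 1 library each, and the Slc30a10 peaks lay 272 and 298 kb from the gene body.

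Of the 49 annotated inorganic ion carriers, 15 had a peak in any library (30.6%, against 18.1% of annotated solute carriers and 14.4% of coding genes). Of the 11 with an ASC MyoD peak, 6 were found in 1 library, as were all 7 with an ASC MyoG peak. ASC-specific for MyoD were 5 of the 49 (10.2%, against 7.06% of annotated solute carriers and 6.15% of coding genes). Among them were sodium-proton exchangers of family 9. Slc9a9, an endosomal exchanger, had a promoter region within 1 kb of a transcription start (ENSMUSG00000031129, chr9:94669977-94670891) with scores of 94.9, 139 and 178 (mean 137 ± 41.6). It also had an intron 1 region in replicates 1 and 3 (chr9:94680841-94681824), an intron 2 peak in replicate 2 with a score of 50.8, close to the lowest listed, and an intron 6 MyoG peak in 1 ASC library.

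Slc9a2, a plasma membrane exchanger, had peaks in all 3 ASC MyoD libraries but no region in all of them. Its intron 1 region was called in replicates 1 and 3 (ENSMUSG00000026062, chr1:40714755-40715482, scores 63.6 and 88.6) and its exon 10 region in replicates 1 and 2 (chr1:40765238-40766251, scores 67.8 and 68.9).

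Slc4a4, a sodium-bicarbonate cotransporter, had 2 MyoD regions in ASC replicates 1 and 2 (ENSMUSG00000060961, chromosome 5). The intron 1 region (chr5:88929189-88930365) scored 67.3 and 67.7, and the region at an inner promoter (chr5:88933300-88934092) scored 51.9 and 58.3. Slc26a9, an anion carrier, had a region annotated as promoter in replicates 1 and 2 with scores of 69.8 and 53.9 (ENSMUSG00000042268, chr1:131750826-131751831). This region lies inside the RefSeq gene body (chr1:131744022-131771504). The scores of Slc4a4 and Slc26a9 all lay below the 50th percentile of their lists.

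The carriers of vitamins, choline and heme had 2 ASC-specific MyoD genes among 19 annotated (10.5%, against 6.15% of coding genes), both of the choline transporter-like family 44. The region at an inner promoter of Slc44a2 (ENSMUSG00000057193, chr9:21337245-21338263), which covers the CAGCTG printed above, scored 107, 174 and 103 (mean 128 ± 39.6). Slc44a3 had an intron 12 region in replicates 2 and 3 with scores of 68.7 and 67.4 (ENSMUSG00000039865, chr3:121464771-121465531), and Slc44a1 had a peak in 1 library. Of the 8 annotated nucleoside carriers, 1 was ASC-specific for MyoD (12.5%). This gene, Slc29a1, had its promoter region in replicates 1 and 2 with scores of 62.3 and 75.0 (ENSMUSG00000023942, chr17:45599180-45599944). Its relative Slc29a2 had 1 peak in 1 library.

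Of the 34 annotated carriers of sugars and sugar phosphates, Slc2a5 was the ASC-specific one (2.94%, against 6.15% of coding genes). Slc2a5 (GLUT5), the fructose carrier, had an intron 3 region in all 3 libraries (ENSMUSG00000028976, chr4:150122335-150123212) with scores of 94.8, 70.4 and 178 (mean 115 ± 56.7). Slc2a12 had a distal peak in 1 library. Among 28 nucleotide sugar and acetyl-CoA carriers, 1 was ASC-specific for MyoD (3.57%). This gene, Slc35b1, a carrier of the endoplasmic reticulum, had a region annotated as promoter in replicates 2 and 3 with scores of 82.2 and 81.8 (ENSMUSG00000020873, chr11:95391714-95392858). The annotation puts the region 1 to 2 kb from a transcription start, while in RefSeq it overlaps the high-coordinate end of the gene body (chr11:95384856-95391776). Slc22a22, an organic anion carrier from a large gene family, had a distal region in replicates 1 and 2, 90.0 kb from its gene body (ENSMUSG00000022366, chr15:57567616-57568592, scores 92 and 60.3). None of the 5 annotated phosphate carriers (families 20 and 34) had a peak in any library.

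**Figure D4:**
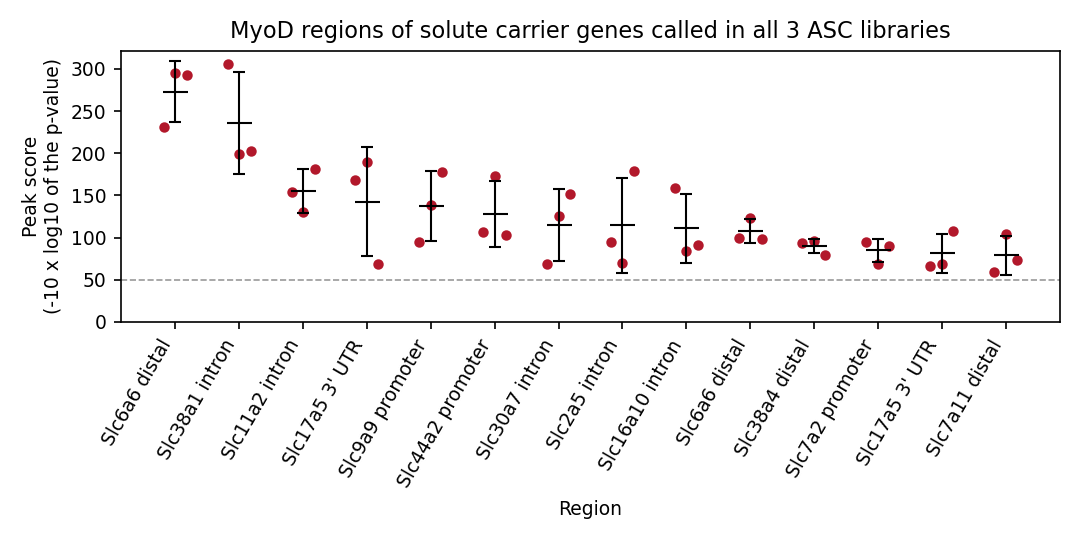
Scores of the 14 MyoD regions of solute carrier genes that were called in all 3 ASC libraries, ordered by mean score. Points are the 3 libraries in order of replicate, bars show mean and SD, and the dashed line marks the lowest listed score of 50.0. The distal Slc6a6 region and the Slc38a1 intron region have the highest means, 273 and 236, and the other 12 lie between 79.0 and 155.

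The 13 genes with a MyoD peak in all 3 ASC libraries held 14 regions common to all 3, in 12 genes, since Slc9a2 had none. Regions in 3 libraries had a median mean score of 115, regions in 2 libraries 68.7 and peaks in 1 library 62.5. Over all ASC MyoD regions these medians were 98.5, 70.8 and 58.4. The 97 ASC MyoD peaks of solute carriers had a median percentile rank of 52.2 within their lists, near the 50 that the ranking gives to all peaks. By replicate the median rank was 42.4, 46.9 and 64.7. Replicate 3 had the fewest solute carrier peaks, 25 against 41 and 31.

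Peaks that overlapped by at least 1 bp were merged into regions, and 29 of the 55 MyoD regions of solute carriers were ASC-specific (52.7%, against 44% of 4488 regions of all genes). In all 3 ASC libraries this was so for 14 (25.5%, against 24.5%). By gene part, the 29 ASC-specific MyoD regions of solute carriers were spread much as the 1976 of all genes. Introns held 34.5% of them (35.1% of all), distal intergenic sequence 31% (35.6%), promoters within 3 kb 24.1% (22.8%) and other exons 3.45% (4.00%). The 3' untranslated regions held 6.90% (2.28%), all at Slc17a5. The 95% Wilson interval of the promoter share, 7 of 29, was 12.2% to 42.1% and covers counting error of regions only. Promoter here is the authors' annotation. The promoter regions of Slc26a9, Slc44a2, Slc4a4 and Slc7a2 lay inside their RefSeq gene bodies, away from both ends. In RefSeq, 21 of the 29 regions touched the body of their gene (72.4%, against 63.0% of the 1873 regions whose gene was matched). The 8 outside lay at a median of 48.1 kb, against 23.5 kb for all genes, and 4 of the 29 lay beyond 50 kb (13.8%, against 10.8%).

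Most called genes had a single region. Of the 23 genes, 18 had 1 ASC-specific MyoD region (78.3%, against 82.8% of 1615 genes given such a region), 4 had 2 (Slc17a5, Slc4a4, Slc9a2 and Slc9a9) and 1, Slc6a6, had 3.

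MyoG peaks at solute carriers were few and did not recur at a position. The 21 ASC MyoG regions were each called in 1 library, as were the 5 QSC MyoG regions. Of all MyoG regions, 9.42% were called ASC-specific, against 0 of the 26 solute carrier regions. Slc16a7, a monocarboxylate carrier, had distal peaks in replicates 2 and 3 (chr10:125622152-125622757, score 53.3, and chr10:125017029-125017494, score 64.9), 233 and 202 kb from its gene body. Slc35f1, an orphan of the nucleotide sugar family, had distal peaks in replicates 1 and 2 (chr10:52638213-52638776, score 50.5, and chr10:52670755-52671359, score 53.4). Both genes met the call at the level of the gene, with an exact Fisher p of 0.4 each, but no position was shared by 2 libraries. The highest MyoG score at a solute carrier was 77.8, at the zinc carrier Slc39a12 in ASC replicate 3. This peak was annotated as promoter, 2 to 3 kb from a transcription start, but lies inside the RefSeq gene body. The median over ASC MyoG peaks of solute carriers was 53.4, against 57.3 over all ASC MyoG peaks. Slc12a2, the sodium-potassium-chloride cotransporter, had 2 distal peaks in ASC MyoG replicate 3 with scores of 53.3 and 51.8. These peaks lay 71.8 and 50.4 kb from the gene body and overlapped another coding gene, Gm35751.

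Within ASCs, 19 solute carriers had MyoD peaks in at least 2 libraries and no MyoG peak (35.2% of 54, against 39.6% of 3917 genes), and 2 had the converse, Slc16a7 and Slc35f1 (3.70%, against 3.93%). The largest contrast, 3 libraries against 0, was seen for 10 genes (18.5%, against 23.5%), with an exact Fisher p of 0.1 and an adjusted exact p of 0.398. These comparisons share the ASC MyoD libraries with those above. Over all states, 7 solute carriers had peaks of both factors: Slc22a22, Slc24a3, Slc30a7, Slc38a1, Slc4a10, Slc4a4 and Slc9a9 (11.9% of 59, against 8.67% of all genes). In 2 of them the peaks overlapped. The Slc38a1 intron region had a MyoG peak in ASC replicate 3 with a score of 50.2, at the 2.35th percentile of its list. The Slc30a7 intron region had one in ASC replicate 2 with a score of 60.9. Of the 29 solute carrier regions with MyoD peaks in at least 2 ASC libraries, 2 (6.90%) thus had a MyoG peak in an ASC library, against 3.78% of the 1986 regions of all genes.

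QSC peaks were found at 6 solute carriers, none in more than 1 library. Of all genes with a QSC peak, 91.0% for MyoD and 96.4% for MyoG were likewise found in 1 library. With MyoD, the zinc carrier Slc30a4 had a 1692 bp peak in its 3' untranslated region in QSC replicate 2 with a score of 65.4 (ENSMUSG00000005802, chr2:122681112-122682803). With MyoG, a peak lay at Slc15a3, a lysosomal carrier of peptides and histidine (annotated as promoter, 4.47 kb from the gene body in RefSeq, score 52.2). Others lay at Slc28a2b, a nucleoside carrier (intron 5, score 50.6), and Slc36a4, an amino acid carrier (distal, score 50.6). The remaining MyoG peaks lay at Slc4a4 (intron 12, score 59.0) and Slc6a2, the noradrenaline transporter (intron 8, score 53.6). Slc28a2b has a close copy, Slc28a2, and reads could be split between them. The Slc4a4 peak was not at either of the ASC MyoD regions of that gene.

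A list of 20 well-known carriers of growing or muscle cells was also examined. It was chosen with earlier results of these data known, so its shares are descriptions. Of these, 5 had a peak (25%, against 14.4% of coding genes and 18.1% of solute carriers): Slc6a6, Slc7a11, Slc11a2 and Slc29a1 with MyoD, and Slc12a2 with MyoG. The other 15 had none in any library. Among them were Slc2a1, Slc2a3 and Slc2a4 (the glucose carriers GLUT1, GLUT3 and GLUT4), Slc7a5 and Slc3a2 (light and heavy chain of the large neutral amino acid exchanger), Slc1a5 (a glutamine carrier), Slc16a1 and Slc16a3 (the lactate carriers MCT1 and MCT4) and Slc6a8 (the creatine transporter). For 6 of the 15 a peak given to another gene lay within 100 kb of the gene body. Those near Slc2a1 and Slc7a5 included 1 MyoD region each that was called in at least 2 ASC libraries, given to Svbp and Galnt2l, and a region near Slc38a2 was the one given to Slc38a1.

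Genes of the same transport pathways that carry other symbols were examined alongside. These lists too were chosen with earlier results known, so their shares are descriptions. Of 67 solute carriers named outside the Slc series, 7 had a peak (10.4%, against 14.4% of coding genes) and 1, Slco3a1, was ASC-specific for MyoD (1.49%, against 6.15%), in 2 libraries and with a best score of 67.8. Of 21 partners and regulators, 4 had a peak (19%, against 14.4%) and 3 were ASC-specific for MyoD (14.3%, against 6.15%). Tbc1d1, a regulator of glucose carrier traffic, had 5 regions and a best score of 295, and Nedd4l, a ubiquitin ligase that acts on membrane transporters, had 4 regions and a best score of 131. Both had a MyoD peak in every ASC library and no QSC or MyoG peak. No gene of these lists was ASC-specific for MyoG.

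Many members were found in a single library of a group. With MyoD in ASCs they were Slc12a1, Slc14a1, Slc17a4, Slc22a23, Slc24a3, Slc24a5, Slc2a12, Slc29a2, Slc30a10, Slc35a3, Slc35f3, Slc35g1, Slc39a11, Slc43a2, Slc44a1, Slc4a10, Slc4a1ap, Slc4a8 and Slc9a7. Slc4a1ap is an adaptor protein and not a carrier. The 25 ASC MyoD regions called in 1 library had scores from 50.8, at Slc9a9, to 128, at Slc30a10. They include further regions of Slc6a6, Slc7a11, Slc44a3 and Slc9a9, which were found in 2 or 3 libraries as genes. With MyoG in ASCs the genes found in 1 library were Slc12a2, Slc13a1, Slc19a3, Slc22a22, Slc22a30, Slc24a3, Slc26a11, Slc30a7, Slc35f4, Slc38a1, Slc39a10, Slc39a12, Slc4a10, Slc4a5, Slc9a9 and Slc9b2. Slc22a30 belongs to a cluster of similar genes, which leaves the placement of its reads uncertain.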

How the data were processed

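MyoD and MyoG ChIP-seq peak lists of 12 libraries were used. Before deposit, the authors called peaks in each library (peak names carry MACS) and gave each peak a gene and gene part. The submitters' processing notes name BWA 0.7.5, MACS, deepTools 3.5.0 and mm10 without their roles, and the MACS version, the use of the inputs and any filters are not given in the sources used here. The deposited score of a peak is 10 times the negative log10 of its p-value (at least 50.0, or p 1e-05). Lists hold no read counts, so depth is unknown. From the lists, gene presence per library, regions merged at 1 bp of overlap, and percentile ranks of scores within a list were computed (Python 3.11.15, pandas 2.3.3). Presence was compared by Fisher's exact test (scipy 1.17.1) over all genes, with Benjamini-Hochberg adjustment. Gene bodies, lengths and promoter windows came from RefSeq GRCm38.p6, which is the mm10 build. All 59 symbols matched. The code of the calls was checked on simulated lists. Planted genes and regions met the call rule by construction, so their recovery does not test the real calls. Genes were named where they had peaks in all 3 libraries of a group, in at least 2 MyoG libraries or in a QSC library, had 3 regions or both factors, or were in a list of 20 known carriers. Others are given by family, and some are not reported here. Members, lists and substrate groups were chosen with earlier results of these data known. Alternatives were a score of at least 80, other numbers of libraries, no distal peaks, a 500 bp gap, 50% overlap, a 1 kb promoter, a replicate block and each library left out.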

Additional observations from a re-analysis of the deposited data

How the results depend on the processing

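The 23 ASC-specific MyoD genes became 12 at a score of at least 80 (12 of 20 solute carriers, against 56.0% of 1392 genes). They became 13 when all 3 ASC libraries were required (30.2%, against 31.6% of all genes), 42 when 1 was enough and 16 without distal peaks. The last 2 counts, and most of those below, stand without a share over all genes. The 19 genes with MyoD and no MyoG peaks in ASCs became 12, 10, 36 and 13 in the same order, and the 29 ASC-specific MyoD regions became 13, 14 and 54 under the first 3 settings. The 2 ASC-specific MyoG genes became 0 at a score of 80, 0 with all 3 libraries, 18 with 1 and 0 without distal peaks. With 1 library enough, 1 QSC-specific MyoD gene, 5 QSC-specific MyoG genes and 21 ASC-specific MyoG regions were counted in place of 0. Requiring 2 libraries to share a region, an alternative chosen after seeing the data, kept 23 MyoD genes and left 0 MyoG genes. The solute carrier share of peaks fell to 0% for MyoG in ASCs and in QSCs at a score of 80, and was 1.99% for MyoG in QSCs without distal peaks. A 500 bp gap or 50% overlap gave 28 and 29 regions, and the promoter share of 24.1% was 17.2% with promoters of 1 kb.

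With 1 library left out, the ASC-specific MyoD genes numbered 15 to 23, the ASC-specific MyoG genes 0 to 2, the MyoD genes without MyoG peaks 12 to 21 and the ASC-specific MyoD regions 16 to 29. By construction both remaining libraries must then hold a peak. The 15 genes were reached without ASC MyoD replicate 1 and without replicate 2. Slc22a22, Slc26a9, Slc29a1, Slc38a6, Slc4a4 and Slc7a10 were lost in both cases, and others in 1 case, among them Slc13a5 without replicate 1, and Slc35b1 and Slc44a3 without replicate 2.

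With the replicate number as a block, at least 2 numbers had to hold a peak only in the first group, and none only in the second. This gave 23 ASC-specific MyoD genes, 2 ASC-specific MyoG genes and 22 genes for MyoD against MyoG in ASCs. The 22 include Slc30a7, Slc38a1 and Slc9a9, which have a MyoG peak under a number that also holds a MyoD peak. The numbers were not shown to pair the samples: the correlation of deviations of log2(solute carrier peaks + 1) between groups ran from -1.0 to 0.900 over 3 numbers each.

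Read depth is unknown, and its part in the counts was not tested. Binding below the lowest listed score is not seen in any list.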
